A study of Mus musculus with 11 samples.

Results

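The AP-1 and early response transcription factors described here are 10 genes, chosen by name: Jun, Junb and Jund, Fos, Fosb, Fosl1 and Fosl2, Egr1, Maff, and Myc. The choice was made with earlier results of these data known. These genes are 10 of the 18194 genes that the array annotation names by 1 symbol. The tissue was the tibialis anterior of mice, a fast shin muscle, and its total RNA was hybridised to 11 Affymetrix arrays in 4 groups. Denervated mutant muscle (3 arrays) and innervated mutant muscle (2 arrays) came from runx1f/-; MCK::cre mice, and denervated control muscle (3 arrays) and innervated control muscle (3 arrays) from runx1f/- mice. Runx1, which encodes a transcription factor, was thus floxed on one chromosome and null on the other in both genotypes, and the mutant alone carried Cre recombinase. Cre is driven there by the muscle creatine kinase promoter, which is active in muscle fibres, so other cells of the muscle are not its target. Cre came only with the Runx1 mutation, and the effects of both cannot be told apart. Denervation, the cutting off of the nerve supply, had lasted 3 days per the titles, while for denervated control 3 another label says 5 days. The mice's age and sex are not stated, and the labels do not say whether each array is another animal, so a p here covers the spread between these samples alone.

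AP-1 is a dimer of leucine zipper proteins, formed by a Jun protein with a Fos protein or with another Jun protein, that binds DNA and turns on genes of growth, stress and matrix remodelling. Early response genes are those that cells transcribe within minutes of a stimulus, before new protein is made. Fos, Fosb, Egr1 and Myc are classic examples, and their transcripts are short-lived. EGR1 is a zinc finger protein that binds GC-rich sites, MAFF is a small Maf protein that lacks an activation domain of its own, and MYC pairs with MAX to raise genes of ribosome building and growth. In muscle these factors are known to respond to contraction, injury and loss of the nerve.

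To show the DNA from which the responding genes are transcribed, the 250 bases before the start of a gene were taken from RefSeq (GRCm38.p6), whose table listed 7 of the 10 members in 9 windows. Fosl1, Myc and Egr1 are not shown. Jun (chr4:95052223-95052472, minus strand) and Junb (chr8:84978749-84978998, minus strand) rose with denervation in both genotypes, as did Fosl2 (chr5:32136222-32136471, plus strand) and Maff (chr15:79347270-79347519, plus strand, the middle of its 3 windows). Fos (chr12:85473640-85473889, plus strand), which did not pass the test, is set beside them. Each window is written 5′ to 3′ along the gene's own strand, ending at the base before the start. Capitals mark the motif matches named after the sequences.
Jun: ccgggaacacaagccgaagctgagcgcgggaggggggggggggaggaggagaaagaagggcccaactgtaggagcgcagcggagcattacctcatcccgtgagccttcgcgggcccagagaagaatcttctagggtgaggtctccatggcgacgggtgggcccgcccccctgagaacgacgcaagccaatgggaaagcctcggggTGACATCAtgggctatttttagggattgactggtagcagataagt
Junb: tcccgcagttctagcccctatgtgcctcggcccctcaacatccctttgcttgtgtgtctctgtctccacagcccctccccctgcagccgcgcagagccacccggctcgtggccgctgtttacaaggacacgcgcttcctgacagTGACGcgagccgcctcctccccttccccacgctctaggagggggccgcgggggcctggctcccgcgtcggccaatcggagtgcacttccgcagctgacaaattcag
Fosl2: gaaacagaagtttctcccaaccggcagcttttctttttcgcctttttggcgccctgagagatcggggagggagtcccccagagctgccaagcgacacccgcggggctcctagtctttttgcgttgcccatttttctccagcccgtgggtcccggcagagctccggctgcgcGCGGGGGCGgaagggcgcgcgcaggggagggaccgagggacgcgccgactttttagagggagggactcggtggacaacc
Maff: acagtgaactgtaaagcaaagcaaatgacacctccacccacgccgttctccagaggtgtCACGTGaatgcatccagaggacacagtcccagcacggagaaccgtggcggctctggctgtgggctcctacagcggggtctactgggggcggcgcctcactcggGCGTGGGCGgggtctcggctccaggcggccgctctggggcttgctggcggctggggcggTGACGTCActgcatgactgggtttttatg
Fos: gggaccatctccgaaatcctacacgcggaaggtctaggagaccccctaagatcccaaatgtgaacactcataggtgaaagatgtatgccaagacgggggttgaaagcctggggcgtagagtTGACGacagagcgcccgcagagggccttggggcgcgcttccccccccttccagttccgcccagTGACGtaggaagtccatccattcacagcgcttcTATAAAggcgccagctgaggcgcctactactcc

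Both strands were searched for 8 motifs. Jun held TGACATCA, a form of the site TGACNTCA that Jun and ATF proteins bind, at -45 to -38 from the start. The Maff window held TGACGTCA at -29 to -22, which also counts as the shorter TGACG on each strand. TGACNTCA occurred in 7.49% of all 32851 promoters of the table. Junb held TGACG at -106 to -102, and Fos held it at -129 to -125 and at -66 to -62, a motif found in 17.8% of promoters. Fosb held TGACG at -60 to -56, and the third Maff window held it at -122 to -118 on the other strand, beside TGACATCA at -45 to -38. GCGNGGGCG, the site of EGR proteins, lay at -79 to -71 in Fosl2, at -88 to -80 in Maff and at -50 to -42 in Fosb, against 4.7% of promoters. Maff also held CACGTG, the E-box that MYC and MAX bind, at -191 to -186 (6.02% of promoters), and Fos held a TATAAA box at -33 to -28 (12.4%). The classic AP-1 site TGANTCA (6.75% of promoters), the RUNX letters TGTGGT (14%) and the CArG box of serum response factor (1.47%) were not among the letters of any of the 9 windows. These matches describe the letters of short windows and carry no measure of binding.

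Values are the signals as deposited, linear and in intensity units. Changes are differences of log2(signal + 16) with the standard error of the fit (SE), and a change passed when its limma p, adjusted over all 26170 tested probe sets, lay under 0.05. Median signals per array lay between 442.5 and 604.6, and the Affymetrix trp control probe sets, for an RNA that muscle does not make, spanned 13.8 to 440.0 and are called near background here. Markers of muscle fibres were bright on all arrays, with a summed signal of 919338 to 1160240 in denervated mutant and 1453230 to 1626680 in innervated mutant muscle, and of 885871 to 1283750 in denervated control and 1344380 to 1536020 in innervated control muscle. Runx1 had a log2 change of 5.91 with denervation in mutant and 6.02 in control muscle, and differed by -0.21 between denervated mutant and denervated control muscle. Where its probe set lies relative to the floxed part is not known here, so it checks nothing about the deletion. The number of arrays limits the precision of every value.

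Denervation raised most of the 10 genes in both genotypes. Of the 9 members with a tested probe set, 6 rose in mutant muscle, where 16.7% of all 12214 tested genes rose, and 7 rose in control muscle, where 18.1% did. The same 6 members (Jun, Junb, Fosl2, Egr1, Maff and Myc) rose in both, against 12.6% of all genes. No member fell. The median log2 change over the tested members was 1.41 in mutant and 1.12 in control muscle, against -0.01 and -0.01 over all tested genes. All denervated arrays lay above all innervated arrays for 8 of the 9 in mutant muscle (31.2% of all genes) and for 6 of the 9 in control muscle (24.2%). Fosb was not tested because its signal was low, and Fosl1 was kept only because 2 denervated arrays passed the filter on low signals. Maff, too, was kept only through denervated arrays, since among the innervated arrays only innervated control 1 exceeded its array median. These counts therefore do not stand for all members. Since the members were chosen with earlier results of these data known, the counts beside the shares of all genes are a description and no test.

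**Figure D1:**
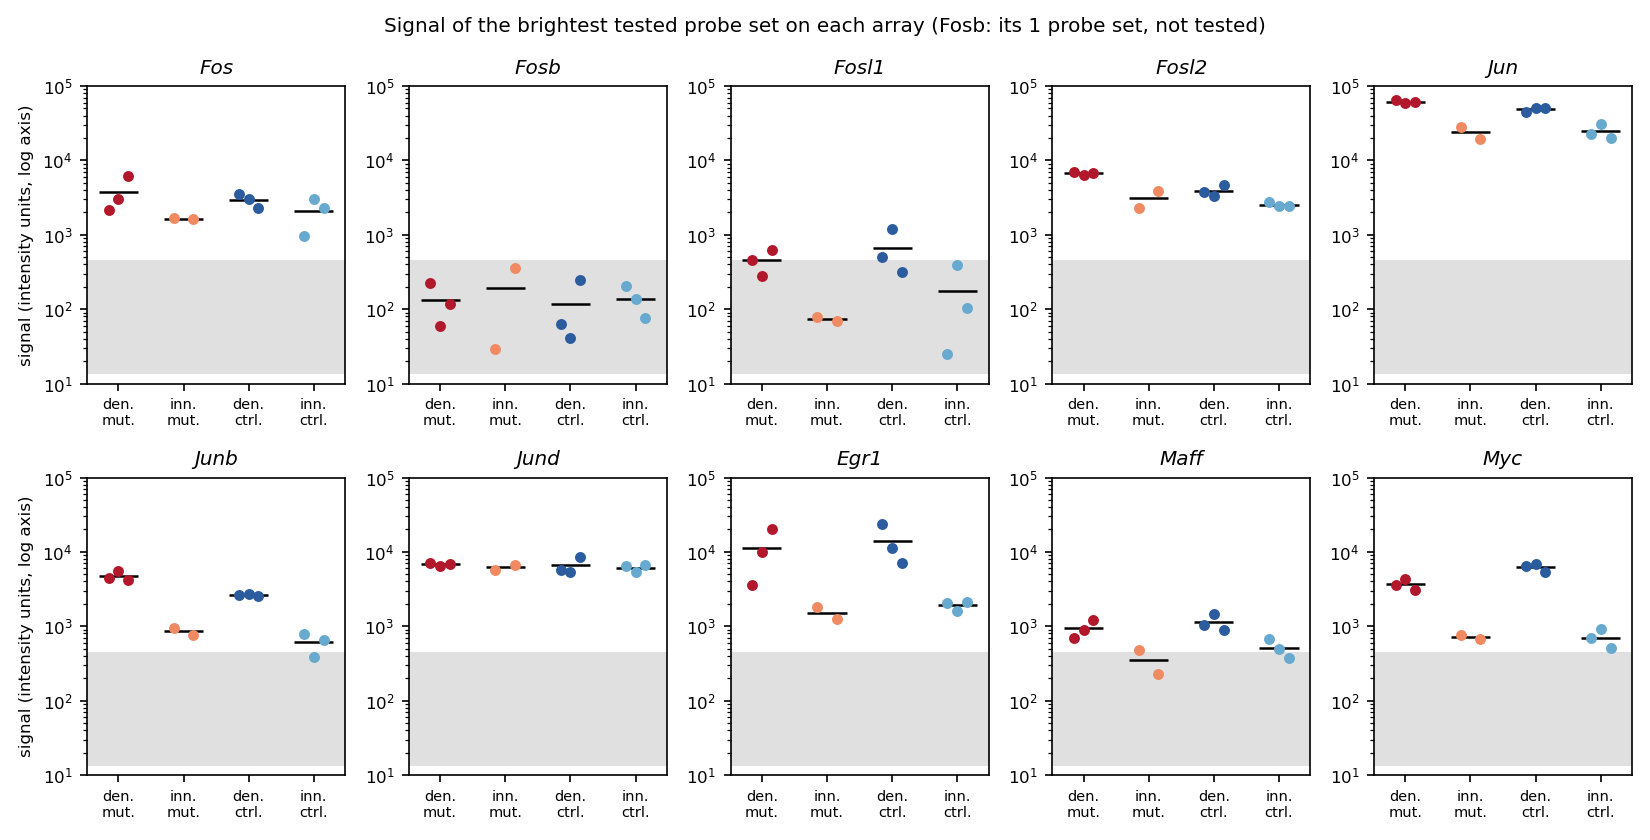
Signal of each member on each array (log axis, intensity units), with denervated (den.) left of innervated (inn.) muscle for mutant (mut.) and then control (ctrl.); points are arrays, bars are group means and the grey band is the range of the trp controls, 13.8 to 440.0. Jun is bright on all arrays, Myc, Junb and Egr1 are higher on all denervated than on all innervated arrays of their genotype, and Fosb stays within the band.

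Among the Jun genes, Junb and Jun rose and Jund did not pass. Junb encodes a Jun protein that is induced by many signals and supports muscle mass in mice. It had signals of 4438, 5455 and 4126 in denervated mutant muscle, against 936 and 769 in innervated mutant muscle. In control muscle it had 2605, 2684 and 2533 after denervation, against 791, 384 and 644 with the nerve intact. The denervated arrays lay above the innervated arrays in both genotypes, and the 3 denervated control values lay within 1.06-fold of each other. The rise was 5.39-fold in mutant muscle (log2 change 2.43 ± 0.26 SE, limma adjusted p = 2.11e-05) and 4.39-fold in control muscle (2.13 ± 0.23 SE, limma adjusted p = 1.72e-05).

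Jun encodes c-Jun, the main partner of the Fos proteins and the target of the JNK kinases. Its brighter probe set read 65188, 59612 and 60053 in denervated mutant muscle, against 28311 and 19527 in innervated mutant muscle. Control muscle gave 44788, 49888 and 50376 when denervated, against 22572, 31007 and 20269 when innervated. These groups did not overlap within a genotype. Jun rose 2.62-fold in mutant (log2 change 1.39 ± 0.19 SE, limma adjusted p = 0.000168) and 1.99-fold in control muscle (1.00 ± 0.17 SE, limma adjusted p = 0.000703). A second, dimmer probe set moved alike, by 1.55 ± 0.18 in mutant (limma adjusted p = 3.61e-05) and 1.26 ± 0.16 in control muscle (limma adjusted p = 5.63e-05).

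Jund encodes JunD, a Jun protein that many tissues make at a steady level. Its signals were 7039, 6513 and 6966 in denervated mutant muscle, against 5781 and 6723 in innervated mutant muscle, and 5697, 5343 and 8651 in denervated control muscle, against 6412, 5290.3 and 6641 in innervated control muscle. The groups overlapped in both genotypes. Its log2 change was 0.13 ± 0.20 SE in mutant (95% interval -0.30 to 0.57, limma adjusted p = 0.664) and 0.07 ± 0.18 SE in control muscle (-0.31 to 0.46, limma adjusted p = 0.797). With spike-in centring, which also raised the median change of all genes, the control change passed (0.90, limma adjusted p = 0.00490). Another Jund probe set was near background on every array, at 73.9 to 290.6.

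Of the Fos genes, Fosl2 rose in both genotypes, Fosl1 passed in control but not in mutant muscle, Fos did not pass and Fosb was not tested. Fosl2 encodes FRA-2, a Fos relative without the activation domain of c-Fos. Its brighter probe set had 7034, 6419 and 6694 in denervated mutant muscle, against 2292 and 3873 in innervated mutant muscle, and 3735, 3279.6 and 4652 in denervated control muscle, against 2782, 2429 and 2400.0 in innervated control muscle. No denervated array overlapped the innervated arrays of its genotype. The rise was 2.25-fold in mutant (log2 change 1.17 ± 0.22 SE, limma adjusted p = 0.00154) and 1.52-fold in control muscle (0.60 ± 0.19 SE, limma adjusted p = 0.0325). The control rise no longer passed in 6 of 23 alternatives (adjusted p up to 0.122 by limma), among them quantile normalization and the fits without denervated control 1 or 3 or innervated control 2 or 3. The probe sets of Fosl2 disagreed: the dimmer, at 499.7 to 817 on the 11 arrays, had log2 changes of -0.15 ± 0.27 in mutant (limma adjusted p = 0.718) and 0.29 ± 0.24 in control muscle (limma adjusted p = 0.408).

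Fosl1 encodes FRA-1, also without that domain. It had signals of 464, 279 and 630.4 in denervated mutant muscle, against 77.9 and 69.1 in innervated mutant muscle. In control muscle it had 498, 1182 and 320.2 after denervation, against 24.9, 396 and 104 with the nerve intact. The innervated means of both genotypes were near background, so the size of the change rests on background, and the control groups overlapped. The log2 change was 2.33 ± 0.87 SE in mutant (limma adjusted p = 0.0653) and 2.23 ± 0.78 SE in control muscle (limma adjusted p = 0.0468). The control rise was lost in 13 of 22 alternatives, with limma adjusted p from 0.00215 to 0.199 over all 22. It was lost, for example, without denervated control 1 or 2 or innervated control 1 or 3, and with the replicate number as a block in all arrays (limma adjusted p = 0.0510). The mutant change passed in 6 of 21 alternatives, and the genotypes' changes differed by 0.11 ± 1.17 SE (limma adjusted p = 0.991). A second Fosl1 probe set was near background in all 4 groups.

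Fos encodes c-Fos, the founding Fos protein. It had 2166, 3047 and 6105 in denervated mutant muscle, against 1660.0 and 1639.8 in innervated mutant muscle, and 3553, 3001 and 2311 in denervated control muscle, against 969, 3005 and 2305 in innervated control muscle. The mutant groups were apart and the control groups overlapped. The log2 change was 1.05 ± 0.45 SE in mutant (95% interval 0.09 to 2.01, limma adjusted p = 0.101) and 0.62 ± 0.40 SE in control muscle (-0.24 to 1.48, limma adjusted p = 0.276). The mutant change of Fos passed in 5 of 22 alternatives. Its control change passed in 1 of 23, spike-in centring (1.45, limma adjusted p = 0.00129). Innervated control muscle itself spanned 3.10-fold between its arrays. Fosb, which encodes a close relative of c-Fos, had 224, 59.7 and 118 in denervated mutant muscle, against 29.2 and 354 in innervated mutant muscle, and 63.5, 40.7 and 246 in denervated control muscle, against 205, 135 and 76.0 in innervated control muscle, all near background.

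**Figure D2:**
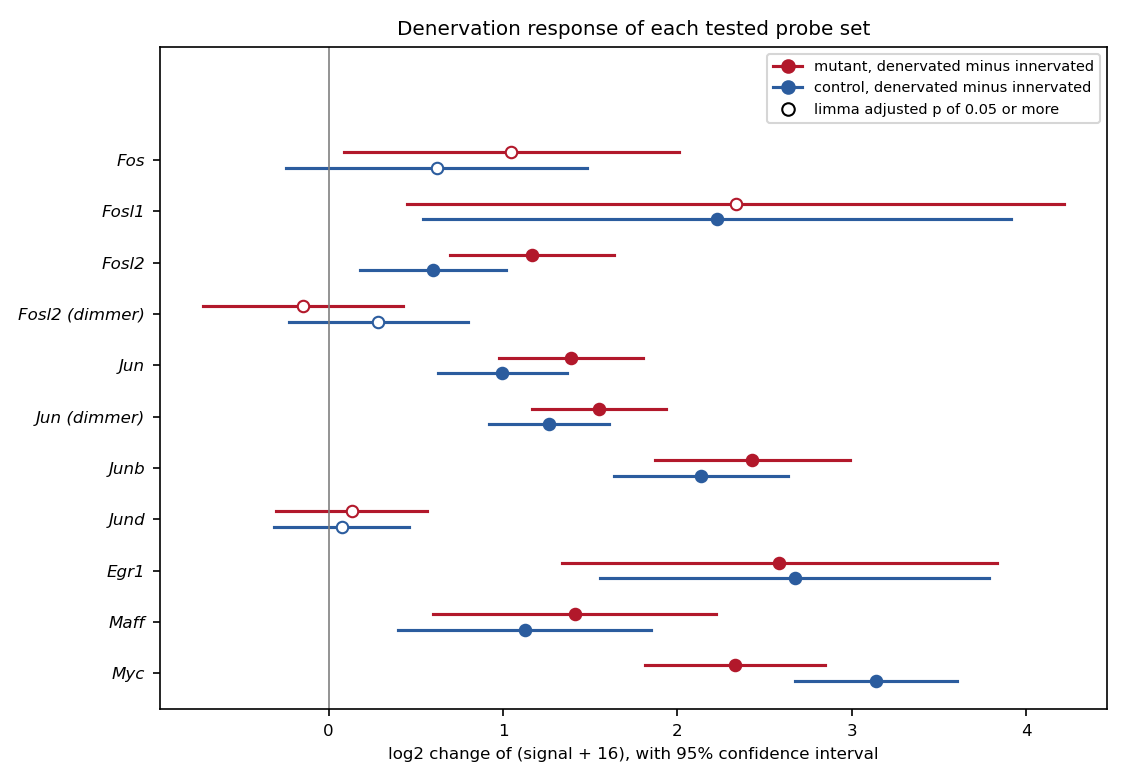
Log2 change with denervation of each tested member probe set, with its 95% confidence interval, in mutant (red) and control muscle (blue); filled points had a limma adjusted p under 0.05. Myc, Egr1 and Junb have the rises of at least 2.13 that passed in both genotypes, the intervals of Fosl1 are the widest, and both intervals of Jund span 0.

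Egr1 encodes a zinc finger factor of the immediate early response. Its signals were 3599, 9929.95 and 20425 in denervated mutant muscle, against 1791 and 1237 in innervated mutant muscle, and 23753, 11157 and 7174 in denervated control muscle, against 2081, 1619 and 2133 in innervated control muscle. All denervated arrays were above all innervated arrays, but they spread widely, over 5.68-fold in denervated mutant and 3.31-fold in denervated control muscle. Egr1 rose 6.0-fold in mutant (log2 change 2.58 ± 0.58 SE, limma adjusted p = 0.00521) and 6.37-fold in control muscle (2.67 ± 0.52 SE, limma adjusted p = 0.00161). Without innervated mutant 2 the mutant rise had a limma adjusted p of 0.0562. Fos ordered the arrays as Egr1 did in both denervated groups: mutant 1 was the lowest and mutant 3 the highest of its group, and control 3 the lowest and control 1 the highest of its group. Jun, by contrast, spanned 1.09-fold and 1.12-fold in those groups.

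Maff, which encodes a small Maf protein that pairs with CNC and other zipper factors, had 687, 903 and 1211 in denervated mutant muscle, against 482 and 228 in innervated mutant muscle. In control muscle it had 1050.2, 1445 and 894 after denervation, against 666, 496 and 376 with the nerve intact. The groups did not overlap in either genotype, and the innervated mutant mean was near background, so the size of the mutant change rests on background. Like Fosl1, Maff passed the filter on low signals only through denervated arrays. Maff rose 2.66-fold in mutant (log2 change 1.41 ± 0.38 SE, limma adjusted p = 0.0143) and 2.18-fold in control muscle (1.12 ± 0.34 SE, limma adjusted p = 0.0225). The mutant rise did not pass without denervated mutant 3 or innervated mutant 2, and the control rise did not pass without denervated control 1 or 2 or innervated control 3, with limma adjusted p up to 0.171 and 0.0984.

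Myc had the largest rise of the members in control muscle. It encodes c-MYC, a helix-loop-helix factor of cell growth. Its signals were 3620.1, 4254 and 3082 in denervated mutant muscle, against 753 and 664 in innervated mutant muscle, and 6389, 6873 and 5310.3 in denervated control muscle, against 690.4, 918 and 506 in innervated control muscle. The denervated arrays of each genotype were far above the innervated ones. Myc rose 5.03-fold in mutant (log2 change 2.33 ± 0.24 SE, limma adjusted p = 1.57e-05) and 8.80-fold in control muscle (3.14 ± 0.21 SE, limma adjusted p = 3.28e-07). In control muscle 70 of the 12214 tested genes had a larger change, and in mutant muscle 145 did. The rises of Myc, Jun and Junb passed in both genotypes under every alternative in which they were tested. Junb was not tested under the stricter filter, where signals had to exceed the array median on all arrays.

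**Figure D3:**
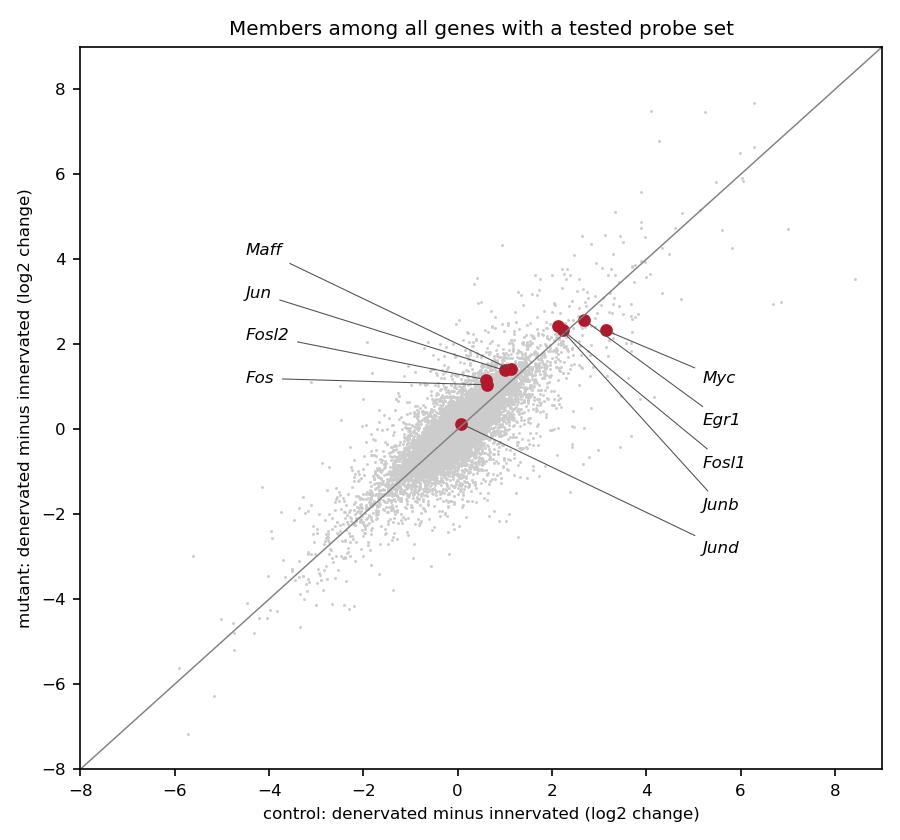
Log2 change with denervation in control (x) and in mutant muscle (y) of the 12214 tested genes (grey) and the 9 tested members (red); the line marks equal change. Myc, at 3.14 in control and 2.33 in mutant muscle, lies below the line, Jun, Fosl2 and Fos lie above it, and Jund lies near the origin.

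Whether the genotypes differed was asked in denervated muscle, in innervated muscle, and as a difference in the denervation change. No member passed in denervated muscle, where limma called 2.16% of tested genes, none in innervated muscle, where limma called 0% of genes, and none for the difference in change, where 0.262% of genes passed. At an unadjusted p under 0.05 these members numbered 3 of 9, 0 of 9 and 1 of 9, against 12.5%, 3.82% and 8.17% of all tested genes, so the last lay near the share of all genes. In denervated muscle the arrays of the genotypes did not overlap for 4 of the 9 members, against 23.1% of all genes: Junb, Jun and Fosl2 lay above control, and Myc lay below it. For Fosl2 this held for the brighter probe set alone. These values share the denervated control arrays with the control changes above.

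Myc averaged 3652 ± 587 in denervated mutant muscle and 6191 ± 800.2 in denervated control muscle (SD, n = 3 each), a log2 difference of -0.76 ± 0.21 SE (limma adjusted p = 0.116). In innervated muscle it averaged 708 ± 62.9 in mutant (SD, n = 2) and 705 ± 206 in control muscle (SD, n = 3). Its denervation change was smaller in mutant than in control muscle by 0.81 on the log2 scale (-0.81 ± 0.32 SE, unadjusted p = 0.0258 in limma's fit, limma adjusted p = 0.545). The difference in denervated muscle passed under 4 of 22 alternatives, of which the replicate number as a block gave a limma adjusted p of 0.0480, and leaving out innervated control 2 was another. Among 4 markers of dividing cells, Mki67, Top2a and Cdk1 did not pass there (log2 differences of 0.13, 0.07 and 0.36), while Rrm2, a subunit of ribonucleotide reductase, averaged 1322 ± 144 in denervated mutant muscle, against 10452 ± 1081 in denervated control muscle (SD, n = 3 each, log2 difference -2.97, limma adjusted p = 1.74e-05). Rrm2 is named because its values stood apart, and its part in the Myc difference was not tested. Junb averaged 4673 ± 695 in denervated mutant and 2607 ± 75.8 in denervated control muscle (SD, n = 3 each), a difference of 0.83 ± 0.23 SE (limma adjusted p = 0.115). Fosl2 averaged 6716 ± 308 and Jun 61618 ± 3100.0 in denervated mutant muscle, against 3889 ± 699 and 48351 ± 3095 in denervated control muscle (SD, n = 3 each). Their log2 differences were 0.80 ± 0.19 SE (limma adjusted p = 0.0598) for Fosl2, which passed in 6 of 22 alternatives, and 0.35 ± 0.17 SE (limma adjusted p = 0.480) for Jun. The dimmer Fosl2 probe set went the other way, by -0.21 ± 0.24 SE (limma adjusted p = 0.832), and its arrays overlapped. The dimmer Jun probe set differed by 0.44 ± 0.16 SE (limma adjusted p = 0.266). The 95% interval of the difference of Egr1, whose genotypes overlapped, was wide (-1.57 to 0.65).

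**Figure D4:**
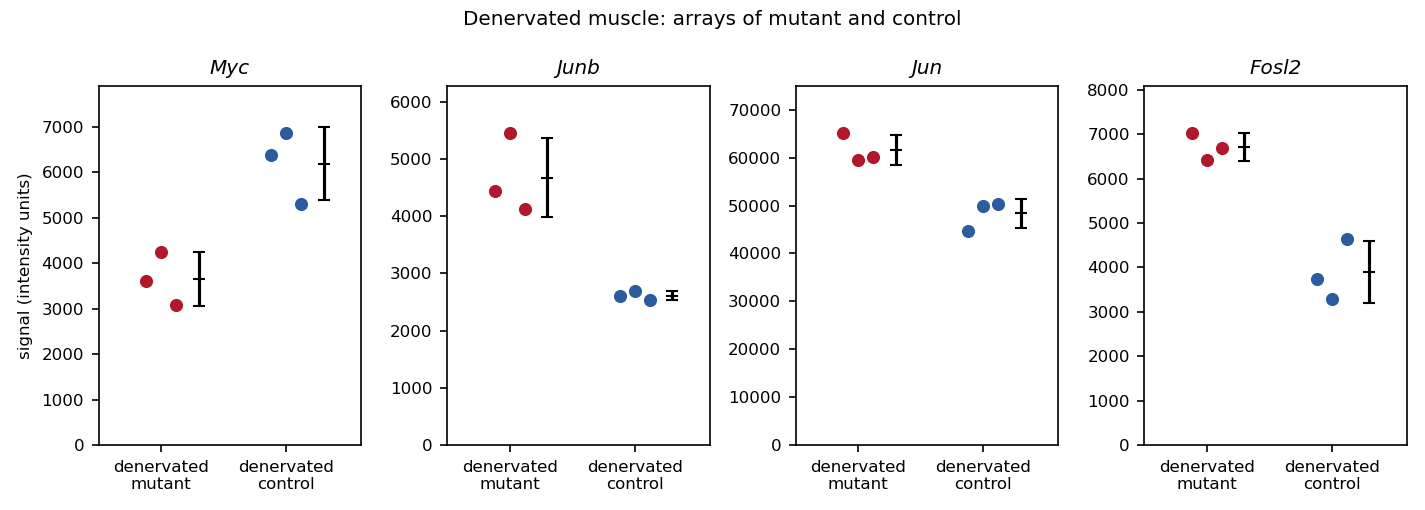
Signals (linear axis from 0) of Myc, Junb, Jun and Fosl2 on the 3 denervated mutant (red) and 3 denervated control arrays (blue), with the mean and SD in black. Jun and Fosl2 are shown by their brighter probe set. The arrays of the genotypes do not overlap in any of the 4 panels, with Myc lower and the other 3 higher in mutant muscle, and no difference passed.

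The partners, regulators and targets of the members were described from lists of genes. Among 17 tested leucine zipper genes, a list of partners of AP-1 and other relatives, 4 rose and 3 fell in mutant muscle, and 4 rose and 4 fell in control muscle. Of all tested genes, 16.7% rose and 13.8% fell in mutant muscle, and 18.1% rose and 16.4% fell in control muscle. Whether any list differed from all genes was not tested. Atf3, a stress-induced partner of Jun proteins, rose in both genotypes, with log2 changes of 2.91 ± 0.42 SE in mutant (limma adjusted p = 0.000243) and 3.41 ± 0.38 SE in control muscle (limma adjusted p = 1.97e-05). Atf6, a sensor of stress in the endoplasmic reticulum, rose by 1.01 and 0.96. Ddit3, a C/EBP relative, had changes of -0.70 in mutant and -0.68 in control muscle, and Creb1, a factor activated by cyclic AMP, of -0.45 and -0.63. These falls passed, but those of Creb1 and Ddit3 no longer did when arrays were centred on spike-in controls, and other probe sets of Creb1 disagreed. Their mutant falls were also lost without the filter, under median scaling, without the eBayes trend and without each single mutant array, and that of Creb1 with the replicate block (limma adjusted p = 0.0839). The control fall of Ddit3 was lost without denervated control 2 or innervated control 1 or 3. Cebpa, a C/EBP factor of adipocytes and myeloid cells, rose by 2.42 in mutant and 0.74 in control muscle, the control rise being lost in several alternatives, among them no filter, only the groups of the comparison, no eBayes trend, and the fits without denervated control 2 or 3, innervated control 1 or 2, denervated mutant 2 or 3, or either innervated mutant array. It was higher in denervated mutant than in denervated control muscle, at 5877 ± 987 against 1724 ± 626 (SD, n = 3 each, log2 difference 1.81, limma adjusted p = 0.00217).

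Of 7 tested Maf genes and partners of the small Maf proteins, 4 rose and 1 fell in mutant muscle, and 2 rose and 1 fell in control muscle. The shares of all tested genes were 16.7% up and 13.8% down in mutant muscle, and 18.1% up and 16.4% down in control muscle. Nfe2l2, which encodes the oxidative stress factor NRF2, rose by 1.2 in mutant and 1.01 in control muscle. Maf, a large Maf protein, fell by 1.75 and 1.83. Mafk, a small Maf itself, changed by 0.47 in mutant (limma adjusted p = 0.0838) and 0.83 in control muscle (limma adjusted p = 0.00219). In the MYC network of 12 genes, 1 rose and 2 fell in mutant muscle, and 1 rose and 3 fell in control muscle. Mycl, a relative of Myc, was near background in innervated muscle and was kept only through denervated arrays. Its signal was 1786 ± 305 in denervated mutant and 1872 ± 299 in denervated control muscle (SD, n = 3 each). Mxi1, an antagonist of MYC, changed by -0.70 and -0.99, Mlxip, a glucose-responsive partner of the MAX relative MLX, by -0.68 and -0.50, and Mlxipl, its relative, by 0.17 (not passing) and -0.56. Centred on spike-in controls, none of these 3 passed for a fall in either genotype, and median scaling also ended the falls of Mxi1 in mutant, of Mlxip in both and of Mlxipl in control muscle.

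Other early response genes went both ways. Of 28 tested, 6 rose and 5 fell in mutant muscle, and 8 rose and 5 fell in control muscle, where 16.7% and 18.1% of all tested genes rose and 13.8% and 16.4% fell. Their median log2 changes were -0.01 in mutant and 0.14 in control muscle, against -0.01 over all tested genes in each. Nr4a1, an orphan nuclear receptor induced by muscle activity, fell by 3.45 in mutant and 3.27 in control muscle, to a signal of 4339.6 ± 1276 in denervated mutant muscle, against 46198 ± 2286 in innervated mutant muscle. Homer1, a scaffold protein of synapses and muscle, fell by 1.38 and 1.32. Ccn1, a matrix protein gene, had a log2 change of -0.10 in mutant (limma adjusted p = 0.816) and 1.65 in control muscle (limma adjusted p = 0.000149). Ier5 changed by 0.41 (limma adjusted p = 0.142) and 1.41 (limma adjusted p = 5.60e-05). Both were lower in denervated mutant than in denervated control muscle, by log2 differences of -1.28 (limma adjusted p = 0.0122) for Ccn1 and -1.05 (limma adjusted p = 0.00757) for Ier5. Klf10, a factor induced by TGF-beta, was higher there in the mutant, at 12336 ± 2025 against 5230.2 ± 534 (SD, n = 3 each, log2 difference 1.23, limma adjusted p = 0.00670). The Ccn1 difference did not pass without denervated control 1 (limma adjusted p = 0.0735) or without the eBayes trend (limma adjusted p = 0.0528). The difference in denervation change of these 3 genes did not pass.

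Upstream, 2 of 17 tested factors and kinases rose and 4 fell in mutant muscle, and 2 rose and 6 fell in control muscle. The shares of all tested genes were 16.7% up and 13.8% down in mutant muscle, and 18.1% up and 16.4% down in control muscle. Map2k6, a kinase that activates p38, fell by 3.47 in mutant and 3.66 in control muscle. Mapkapk2, a kinase that p38 activates, fell by 1.16 and 1.63, and Mrtfa, a coactivator of serum response factor, by 1.19 and 1.37. Centred on spike-in controls, the falls of Mrtfa in both genotypes and of Mapkapk2 in mutant muscle no longer passed. Elk1, a partner of serum response factor at early response promoters, rose by 1.31 and 1.48. Among 15 MAP kinase phosphatases and EGR co-repressors, 3 rose and 6 fell in mutant muscle, and 4 rose and 6 fell in control muscle. Dusp4, a phosphatase of nuclear MAP kinases, rose by 2.57 and 2.44. Dusp5 and Dusp2, both near background in innervated muscle, also passed for a rise, and the sizes rest on background. Both Dusp5 and Dusp2 were kept only through denervated arrays. Dusp5 had 1347 ± 805 in denervated mutant and 956 ± 280.3 in denervated control muscle, and Dusp2 had 1465 ± 47.8 in denervated mutant and 1774 ± 454 in denervated control muscle (SD, n = 3 each). The mutant rise of Dusp2 was lost without any single mutant array other than denervated mutant 1. Dusp8, which acts on JNK and p38, fell by 1.32 and 1.53.

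Dusp1, an early response phosphatase of p38 and JNK, was the one gene of these pathway lists whose denervation change differed between the genotypes in the reported fit. Ccn1 passed for that difference in some alternatives, among them spike-in centring. Cebpa, at 1.68 in the reported fit (limma adjusted p = 0.112), passed without denervated control 3 (1.94, limma adjusted p = 0.0377). Dusp1 had a signal of 9208 ± 1274 in denervated mutant muscle (SD, n = 3), against 43135 ± 1119 in innervated mutant muscle (SD, n = 2), and of 26004 ± 1286 in denervated control muscle, against 49264 ± 7552 in innervated control muscle (SD, n = 3 each). It fell by 2.24 in mutant and 0.91 in control muscle on the log2 scale, of which the control fall was -0.08 with spike-in centring (limma adjusted p = 0.667). The genotypes differed by a change of -1.32 ± 0.21 SE (limma adjusted p = 0.0250). In denervated muscle it was lower in the mutant by 1.5 on the log2 scale (± 0.14 SE, limma adjusted p = 0.000165). The difference in change did not pass under median scaling (limma adjusted p = 0.115), nor without any single array other than denervated mutant 3, denervated control 3 or innervated control 2.

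In both target lists, more genes rose than fell. These lists were chosen with earlier results of these data known, so their counts are a description and no test. Of 19 tested AP-1 targets, 9 rose and 1 fell in mutant muscle, and 9 rose and 1 fell in control muscle, with medians of 0.66 and 0.59 on the log2 scale. Among all tested genes 16.7% rose and 13.8% fell in mutant muscle, and 18.1% rose and 16.4% fell in control muscle. Tnfrsf12a, the receptor of the cytokine TWEAK, rose by 3.58 in mutant and 4.0 in control muscle, Timp1, an inhibitor of matrix proteases, by 1.95 and 3.14, Lmna, a protein of the nuclear lamina, by 2.18 and 2.30, and Mmp3, a matrix protease, by 2.12 and 1.94. Of 24 MYC targets, 18 rose and 4 fell in mutant muscle, and 19 rose and 4 fell in control muscle, with medians of 0.76 and 0.80. Bop1, a ribosome assembly protein, rose by 1.80 and 1.81 and Eif4a1, a translation helicase, by 1.34 and 1.65. Tfrc, the transferrin receptor, fell by 3.88 and 3.33, and Ldha, a glycolytic enzyme, by 1.49 and 1.39. In the reported fit, no gene of either target list passed between the genotypes in denervated muscle. Of the target genes named here, Tfrc passed there without denervated control 3 (log2 difference -0.73, limma adjusted p = 0.0461). Tfrc and Timp1 passed there with spike-in centring.

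**Figure D5:**
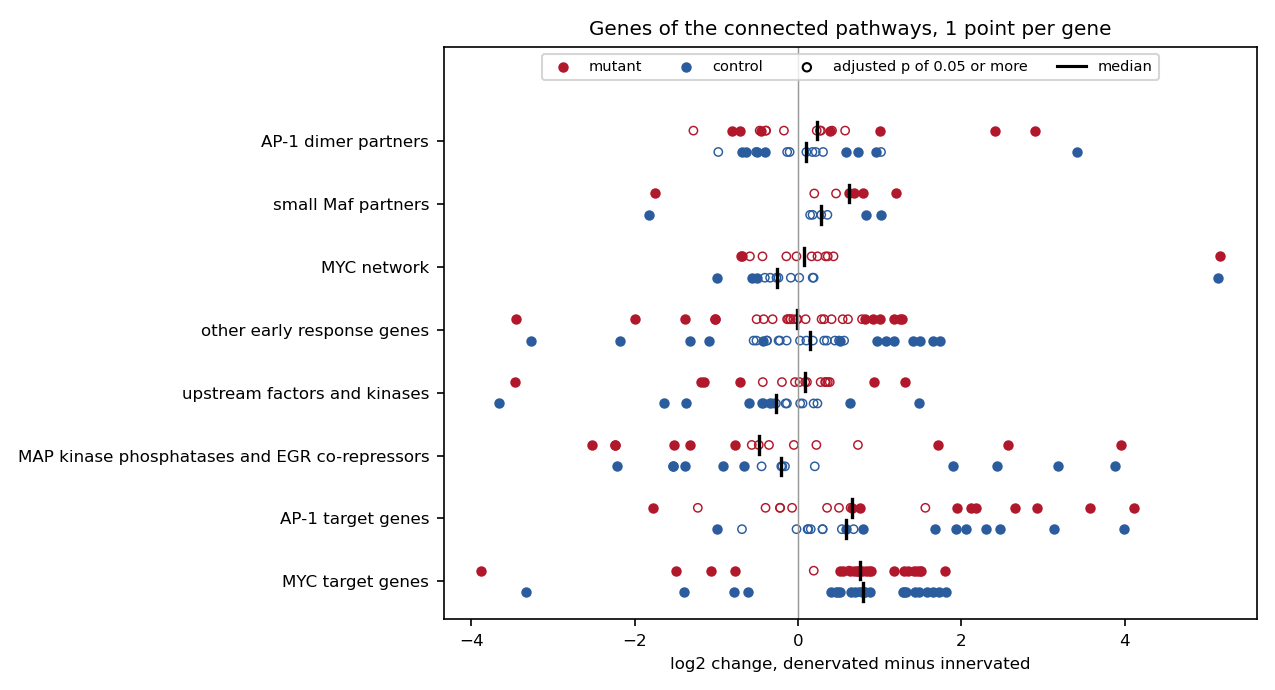
Log2 change with denervation of each tested gene of the 8 connected lists, in mutant (red, upper row) and control muscle (blue, lower row); filled points had a limma adjusted p under 0.05 and black bars are medians. The medians of the MYC targets lie at 0.76 and 0.80 and those of the AP-1 targets at 0.66 and 0.59, and the other lists spread to both sides of 0.

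Some marker lists of other cells rose with the members, some fell, and others had few calls. Of all tested genes, 16.7% rose and 13.8% fell in mutant muscle, and 18.1% rose and 16.4% fell in control muscle. The summed signal of 10 macrophage and leukocyte markers was 65429 to 81485 in denervated mutant muscle, against 22083 to 25400.3 in innervated mutant muscle, and 53794 to 71432 in denervated control muscle, against 26044 to 35505 in innervated control muscle. Of the 10, 7 rose in mutant and 5 in control muscle, and Itgam and Fcgr1 were near background in innervated muscle and were kept only through denervated arrays. For the difference in denervation change between the genotypes, 1 of the 10 passed, with a higher change in mutant muscle, against 0.262% of all tested genes. All 4 tested markers of dividing cells rose in both genotypes, with sums of 5027 to 6574 in denervated mutant, against 1172 to 1747 in innervated mutant muscle, and 13746 to 15019.5 in denervated control, against 2052 to 2484 in innervated control muscle. Rrm2 alone carried the gap between the denervated genotypes in these sums: the other 3 averaged 2171, 1336 and 1059 in denervated mutant muscle, against 1995, 1262 and 819.5 in denervated control muscle, for Mki67, Top2a and Cdk1 in that order. Cdk1 was near background in innervated muscle and was kept only through denervated arrays, and Mki67 was near background in innervated mutant muscle. Of 5 satellite cell and myoblast markers 3 rose and 1 fell in mutant muscle and 2 rose and 1 fell in control muscle, with sums of 25911 to 35269 and 24149 to 26732 in denervated mutant and control muscle, against 11213 to 14961 and 11187 to 13057 in innervated mutant and control muscle. The 2 tested granulocyte markers, S100a8 and S100a9, had a sum of 16860 to 24769 in denervated mutant muscle, against 353 to 689 in innervated mutant muscle, and 7164 to 15782 in denervated control muscle, against 173 to 347 in innervated control muscle. Of these 2, 1 rose in each genotype, and both were near background in innervated muscle and were kept only through denervated arrays. Muscle fibre markers fell, 6 of 6 in mutant and 4 of 6 in control muscle, as did 4 of 5 smooth muscle markers in each. Of 5 endothelial markers, 1 fell in mutant and 4 fell in control muscle, with sums of 14702 to 16875 in denervated mutant, against 21399 to 22341 in innervated mutant muscle, and 13549 to 14943 in denervated control, against 20915 to 24408 in innervated control muscle. None of 5 fibroblast markers rose, and 1 fell in mutant and 0 in control muscle. Of 3 tested Schwann cell markers 1 fell in each genotype, and none rose. In whole muscle, a changed share of a cell type and a changed RNA level per cell cannot be told apart, and the part of these cells in the members' rises was not tested.

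The genes whose log2 signal followed a member most closely over the 11 arrays differed from member to member. Pearson correlations are given as descriptions over 11 arrays that share the 4 groups, with no test. For Jun these were Zdhhc14, Stbd1 and Tgfbr1 (0.99 each), and for Junb they were Cd302, Gstm1 and Cat (0.98 to 0.99). Myc was followed by Rnmt, Slc9a9 and Atp2a2 (0.99 each), and Fosl2 by Zfp36l1, F2r and AI837181 (0.95 to 0.96). The nearest genes to Egr1 were Rae1, Naa50 and Ddx49 (0.95 to 0.96), to Maff Smad2, Mideas and Rbbp7 (0.94 to 0.97), and to Fosl1 Igf2r, Gosr2 and Zfr (0.93 to 0.96). Fos lay nearest to Rabgef1, Anp32e and Txnrd3 (0.86 to 0.91) and Jund to Pip4k2b, Kdm2a and Spag7 (0.87 to 0.93). After the group means were taken away, the correlation was 0.96 for Jun and Zdhhc14 and 0.95 for Jund and Pip4k2b. For Myc and Atp2a2 it was 0.55, and for Junb and Cat 0.51. The pairs were picked by their correlation on these same arrays, so these values, too, are a description.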

How the data were processed

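Total RNA of tibialis anterior was measured on 11 arrays in 4 groups, taken from the sample titles. The authors deposited probe set signals as linear intensity values, scaled per array to a common 2% trimmed mean of 2500, as the values show. No source used here names the software behind these signals. Of 45101 probe sets, 64 Affymetrix controls were left out and the 26170 that exceeded the median of the array on 2 or more arrays were tested. Of all probe sets, 34958 had 1 gene symbol, 932 several and 9211 were not listed. A gene was represented by its brightest tested probe set (12214 genes). The members had 14 probe sets, of which 11 were tested.

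Signals were used as log2(value + 16). limma 3.58.1 in R 4.3.3 fitted a mean per group to all 11 arrays (eBayes with trend) with Benjamini-Hochberg adjustment per comparison. limma called 6894 probe sets for denervation in mutant and 7670 in control muscle, 478 and 0 between genotypes in denervated and innervated muscle (1030 in innervated muscle at an unadjusted p under 0.05), and 65 for the difference in change. The pipeline was tested on simulated data. Deviations from the group means of equally numbered control arrays correlated at 0.11 to 0.17 over the tested genes. The labels state no pairing, and the reported fit used none. The replicate number entered as a block only in alternatives. In the other comparisons the correlations were -0.25 to 0.05. A block on the replicate number in the control arrays, added after seeing the data, left 7 members called. Named list genes were those past the threshold with the smallest p in control muscle, up to 4 a list, and those past it between genotypes or for the difference in change. For likeness, the 3 nearest genes were named. The members and lists were chosen with earlier results of these data known.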

Additional observations from a re-analysis of the deposited data

Results flagged for a closer look

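Dusp1 was singled out because its denervation change differed between the genotypes by a test of the difference itself. The change in mutant minus that in control muscle was -1.32 on the log2 scale (limma adjusted p = 0.0250). The adjusted p lay between 0.0514 and 0.115 under the alternatives that ended the call, which were median scaling, the replicate block, eBayes without trend and the removal of single arrays. Denervated mutant arrays had 7793 to 10263, against 42344 to 43926 on innervated mutant arrays, and denervated control arrays 25043 to 27466, against 43581 to 57833 on innervated control arrays. The cause of the difference was not tested.

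Rrm2, a marker of dividing cells named after its values were seen, was singled out by the same test. It was not the only cell marker to pass, since 1 of 10 macrophage and leukocyte markers also did, with a higher change in mutant muscle, against 0.262% of all tested genes. For Rrm2 the change in mutant minus that in control muscle was -2.42 on the log2 scale (limma adjusted p = 0.00605), and its 2 other tested probe sets gave -2.45 and -3.12. The cause was not tested.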

How the results depend on the processing

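The rises of Myc, Jun and Junb passed in both genotypes, and those of Egr1 in control and Fosl2 in mutant muscle in their comparison, under every alternative in which they were tested. Junb was not tested under the stricter filter described next. The number of members called for denervation in control muscle was 7, and was 4 of the 6 still tested when signals had to exceed the array median on all 11 arrays, since fewer genes were tested. With single arrays left out it was 4 to 6, with 4 without denervated control 1 or innervated control 3 and 6 without denervated control 3, the array with the 5-day note. For denervation in mutant muscle it was 4 to 8 in place of 6. For genotype in denervated muscle the count of 0 became 1 under median scaling, 1 with spike-in centring, 1 with the replicate block (Myc, limma adjusted p = 0.0480) and 3 with only the groups of the comparison in the fit, and lay between 0 and 3 with single arrays left out, with 3 without innervated control 2. Apart from these the block ended 1 member's call, Fosl1 in control muscle, and in the control arrays alone it ended none. Spike-in centring moved the median change of all genes in mutant and control muscle to 0.46 and 0.82, and median scaling to 0.29 and 0.07, so changes are relative to the deposited scaling. In all, 25 member values lost and 25 gained a call, over 12 member changes, and 42 values of uncalled changes turned sign. Causes were not tested beyond what the smaller sets of genes or arrays imply. With 2 or 3 arrays a group and no detection calls, Fosb and low Fosl1 signals could not be told from background.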
